A study of Mus musculus with 38 samples.

Results

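The genes described here were 9 genes of B cells and lymphoid follicles: Ms4a1, Cd79a, Cd79b, Pax5, Cr2, Cxcl13, Cxcr5, Fcer2a and Ccr7. They were chosen by symbol and matched to Ensembl identifiers in the count tables, where all 9 were found among 55416 gene identifiers. RNA was sequenced in bulk from mouse intestinal tract, in 38 libraries deposited as 3 tables, from a study of colorectal cancer mice fed black rice or a control diet. Of these, 18 stood in the Apc table, 6 each from black rice, control diet and WT animals, and every arm had 3 libraries with the letter F in the title and 3 with the letter M. The AOM table held black rice and control diet libraries in the same layout, and in the third set 4 libraries were from black rice and 4 from control mice, and their titles carried neither letter. The deposited table of the third set carries the letters FMT in its name, and no label says what they stand for, so its black rice arm is described here only as labelled. No treatment was given for the WT libraries, and the labels gave no strain, allele, age, dose, feeding time, gut segment or tumour status for any group. The header of the Apc table called its libraries colon. The titles alone name Apc and AOM, which in mouse work usually stand for a tumour suppressor gene of the intestine and for the carcinogen azoxymethane. No label says that libraries of a group came from separate animals, so the p-values here measure the spread between these libraries, which may be technical in part.

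B cells of the gut wall gather in lymphoid follicles, single or grouped into patches, beneath a specialised epithelium that takes up particles from the lumen. Follicular stromal cells make the chemokine CXCL13, and B cells carrying its receptor CXCR5 move toward it, while CCR7 guides lymphocytes toward the T cell zones beside the follicle. Isolated follicles lie at intervals along the colon, so a piece of gut wall can include a follicle or miss it. In bulk RNA, more cells of a type and more RNA per cell cannot be told apart, and the labels do not say whether follicles were included in the dissected tissue.

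The 9 genes lie on chromosomes 19 (Ms4a1), 7 (Cd79a), 11 (Cd79b and Ccr7), 4 (Pax5), 1 (Cr2), 5 (Cxcl13), 9 (Cxcr5) and 8 (Fcer2a). Promoter windows were taken from RefSeq's GRCm38.p6 table, which held entries for 5 of the 9 genes (Cr2, Pax5, Cxcl13, Cd79a and Fcer2a). The windows of the follicle chemokine Cxcl13 and of the B cell receptor chain Cd79a are shown because each held a match to a motif that factors of B cells or other white blood cells bind. Each is the 250 bases before the start on the plus strand, chr5:95956689-95956938 for Cxcl13 and chr7:24897247-24897496 for Cd79a, with the match in capitals.
Cxcl13: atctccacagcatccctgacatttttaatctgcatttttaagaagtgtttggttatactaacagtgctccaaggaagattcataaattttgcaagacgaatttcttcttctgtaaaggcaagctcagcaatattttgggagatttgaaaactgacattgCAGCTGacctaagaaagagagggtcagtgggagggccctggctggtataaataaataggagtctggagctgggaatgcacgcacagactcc
Cd79a: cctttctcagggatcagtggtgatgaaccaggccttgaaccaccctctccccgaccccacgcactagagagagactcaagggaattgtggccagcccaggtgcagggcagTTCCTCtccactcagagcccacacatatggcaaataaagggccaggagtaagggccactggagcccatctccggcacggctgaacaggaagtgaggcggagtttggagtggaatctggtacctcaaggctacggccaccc
The capitals in the Cxcl13 window mark CAGCTG, the E-box of E2A, beginning 91 bases before the start. The capitals in the Cd79a window mark TTCCTC, the reverse complement of the PU.1 core GAGGAA, beginning 140 bases before the start. In all, 4 motifs were searched on both strands, and the windows of Cr2 and Pax5 held no match to any of them. Whether a match bears on the level of its gene was not tested. The letters CAGCTG were in 13% of 32851 mouse promoter windows of this length and in windows of 2 of the 5 genes. The other gene was Fcer2a, which had more than 1 window and the match in only 1 of them. The shares given here are per window and the counts per gene, so they are not the same measure. The letters GAGGAA were in 23.3% of all windows and in 1 of the 5 genes. The octamer ATGCAAAT and the EBF motif were in 1.60% and 0.779% of all windows and in none of the 5 genes' windows, and none of the 4 motifs overlaps another in the windows shown.

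Depth lay between 44.8 and 61.9 M counted reads in the 18 Apc libraries, between 37.9 and 55.1 M in 11 AOM libraries, and between 66.6 and 91.1 M in the 8 libraries of the third set. The remaining AOM library, black rice F replicate 3, held 5.37 M reads, of which 19.5% (95% Clopper-Pearson interval 19.4% to 19.5%, counting error only) fell in 5 hepatocyte genes, against at most 0.0126% in any other library. It goes against its intestinal label and was left out of the AOM results unless stated. Of the 9 genes it held 0 reads of Ms4a1 and of Cxcr5, which at its depth allows up to 0.558 counts per M reads (CPM), 6 of Cd79a and 69 of Cxcl13.

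Adjusted for gene length, Cxcl13 had the highest median level in all 3 tables. Its median reads per kilobase and M reads (RPKM), taken over libraries, was 55.0 in the Apc table, 5.74 in the AOM table and 5.71 in the third set. Cd79a and Cd79b, which form the signalling pair of the B cell receptor, came next, at 12.4 and 12.3 RPKM in the Apc table, 4.65 and 4.74 in the AOM table, and 1.32 and 1.90 in the third set. The other 6 genes had median levels between 1.26 and 2.99 RPKM in the Apc table, from 0.257 to 0.710 in the AOM table and from 0.0600 to 0.269 in the third set. Pax5, the transcription factor that sets B cell identity, was the lowest of the 9 in each table. Neighbouring ranks among these 6 were not separated, since each gene's range over libraries covered the medians of its neighbours in that order in the Apc and AOM tables. The 3 tables come from separate experiments, so the levels between tables are side by side values and not a comparison.

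Libraries of the same group differed widely in these genes. The mean log2 CPM of the 9 genes spanned 38-fold over the 18 Apc libraries, 93.2-fold over the 11 AOM libraries and 5.78-fold over the 8 libraries of the third set. Within groups of 3 or 4 it spanned from 1.98-fold in Apc WT F to 14.7-fold in Apc black rice F. The within-group SD of log2 CPM exceeded that of 93.2% to 99.2% of 15580 genes in the Apc table and of 94.9% to 99.4% of 15421 genes in the AOM table. In the third set it exceeded that of 95.9% to 99.4% of 15468 genes for 7 of the 9, with Cxcr5 above 89.2% and Ccr7 above 56.0% of genes.

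**Figure D1:**
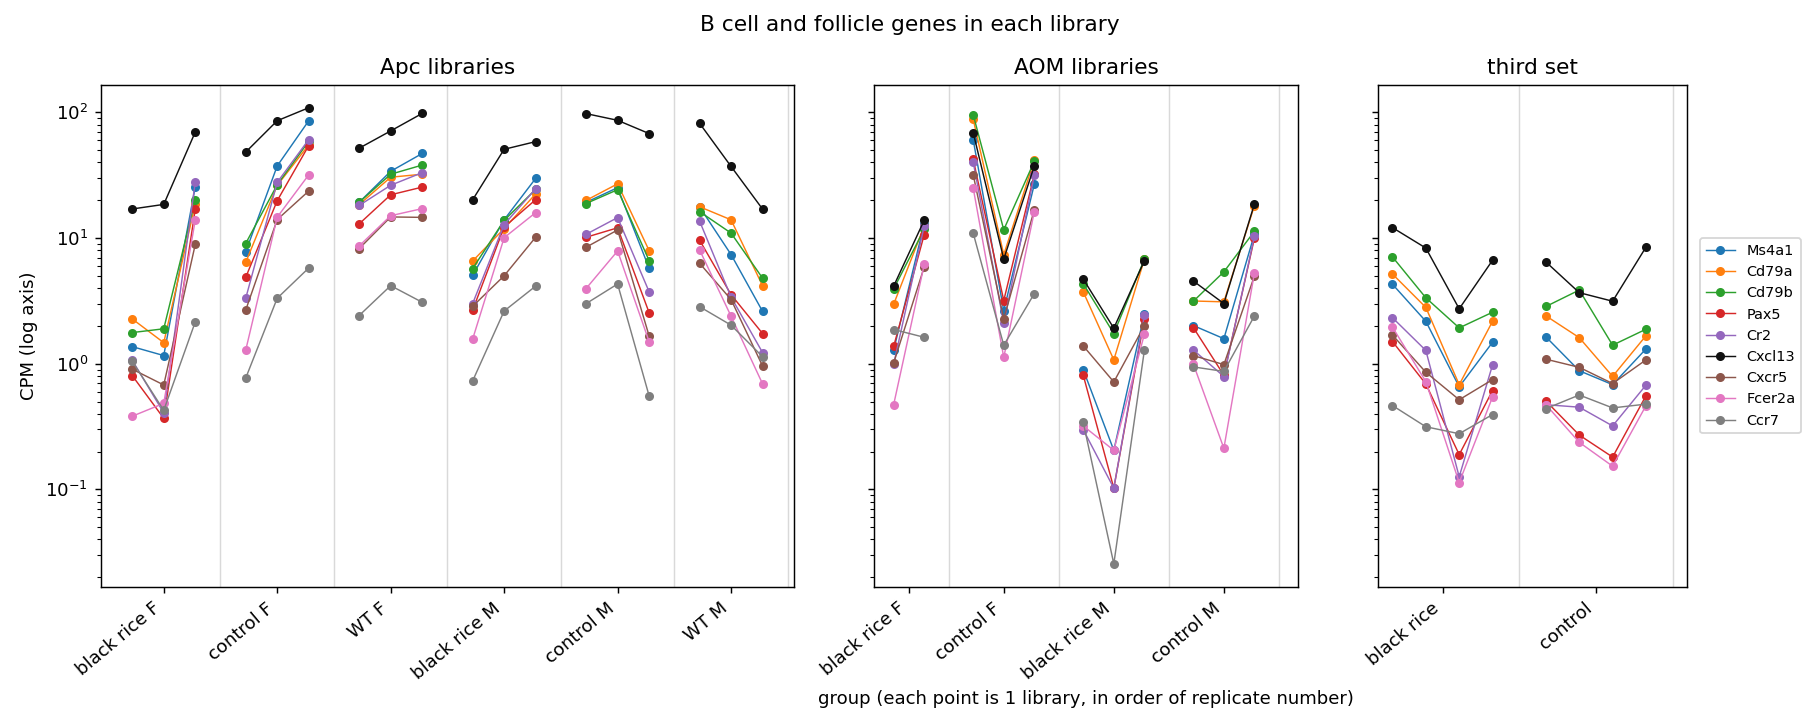
CPM on a log axis of the 9 genes in each library, with 1 point per library in order of replicate number and AOM black rice F replicate 3 left out. Thin lines join the libraries of a group for each gene, only to guide the eye. The 9 genes of a library tend to lie high or low together, as in Apc black rice F, where replicate 3 stands above replicates 1 and 2 for all 9 genes.

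Ms4a1 encodes CD20, a surface protein of mature B cells. In Apc black rice F libraries it was at 1.37, 1.16 and 25.6 CPM, in control F libraries at 7.77, 37.5 and 85.8 CPM, and in WT F libraries at 19.3, 34.0 and 47.1 CPM. In Apc black rice M libraries it was at 5.05, 14 and 29.9 CPM, in control M libraries at 19.3, 25.2 and 5.76 CPM, and in WT M libraries at 17.7, 7.40 and 2.61 CPM. The 2 lowest libraries were black rice F replicates 1 and 2 and the highest was control F replicate 3, and the ranges of the 3 arms overlapped within both letters.

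Cd79a followed the same libraries, at 2.27, 1.47 and 18.7 CPM in Apc black rice F, 6.40, 26.3 and 55.2 CPM in control F, and 18.5, 30.5 and 32.2 CPM in WT F. In Apc M libraries it was at 6.57, 11.9 and 22.5 CPM with black rice, 19.95, 27 and 7.96 CPM with the control diet, and 17.8, 14 and 4.17 CPM in WT. Black rice F replicate 3 was thus within the control F range while its 2 fellow libraries were below it. The partner chain Cd79b ranged over the 18 libraries from 1.77 to 59.0 CPM and Pax5 from 0.368 to 54.5 CPM, with the lowest value in black rice F and the highest in control F replicate 3 for both.

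Cr2 encodes the complement receptor CD21 and Fcer2a the low-affinity IgE receptor CD23, both carried by B cells and by follicular dendritic cells. Cr2 was at 1.07, 0.407 and 27.9 CPM in Apc black rice F, 3.31, 27.8 and 60.8 CPM in control F, and 18.2, 26.3 and 33.2 CPM in WT F. Cr2 was at 3.01, 12.8 and 24.7 CPM in Apc black rice M, 10.7, 14.6 and 3.74 CPM in control M, and 13.7, 3.39 and 1.23 CPM in WT M. The spread of Cr2 within black rice F was 68.7-fold, the widest of any gene of the 9 within an Apc group. Fcer2a spanned from 0.382 CPM in black rice F replicate 1 to 31.9 CPM in control F replicate 3.

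Cxcl13, the follicle chemokine, was at 17.0, 18.5 and 69.8 CPM in Apc black rice F, 48.3, 85.9 and 109 CPM in control F, and 51.9, 71.2 and 98.2 CPM in WT F. It was at 20.2, 50.9 and 58.5 CPM in Apc black rice M, 97.8, 86.5 and 67.9 CPM in control M, and 82.1, 37.2 and 17.0 CPM in WT M. In the M libraries all 3 black rice values lay below all 3 control values, the only case among the 9 genes and the 7 comparisons of arms examined in which the libraries of 2 arms did not overlap. Of all genes tested, 8.65% had black rice M libraries entirely below control M libraries, so 1 gene of 9 is near that background.

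Cxcr5, the receptor for CXCL13 on follicular B and T cells, ranged from 0.678 CPM in black rice F replicate 2 to 23.7 CPM in control F replicate 3. Ccr7 varied least after Cxcl13 among the 9 in the Apc table, from 0.426 to 5.78 CPM, again between the same pair of libraries. Both genes had overlapping ranges in the 3 arms.

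In the AOM table Ms4a1 was at 1.29 and 13 CPM in the 2 black rice F libraries, against 60.8, 2.64 and 26.8 CPM in control F libraries. It was at 0.897, 0.205 and 2.49 CPM in black rice M libraries, against 2.01, 1.58 and 10.8 CPM in control M libraries. Black rice M replicate 2 stood lowest and control F replicates 1 and 3 highest, and control F replicate 2 lay within the black rice range. Cxcl13 showed the same pattern, at 4.15 and 13.9 CPM in black rice F against 69.1, 6.81 and 37.5 CPM in control F, and at 4.72, 1.92 and 6.60 CPM in black rice M against 4.56, 3.01 and 18.7 CPM in control M. Cd79a was lowest at 1.07 CPM and Cd79b at 1.74 CPM in black rice M replicate 2, and they reached 88.5 and 96.1 CPM in control F replicate 1. The remaining 5 genes also had their lowest value in black rice M replicate 2 and their highest in control F replicate 1, and black rice M replicate 2 held 0.0256 CPM of Ccr7 and 0.102 CPM each of Pax5 and Cr2.

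In the third set the highest value of any of the 9 genes was 12.1 CPM, for Cxcl13 in black rice replicate 1. Ms4a1 was at 4.29, 2.18, 0.656 and 1.48 CPM in black rice libraries, against 1.64, 0.880, 0.682 and 1.31 CPM in control libraries. Cr2 was at 2.32, 1.28, 0.126 and 0.979 CPM in black rice libraries, against 0.472, 0.451, 0.320 and 0.676 CPM in control libraries. Black rice replicate 1 was the highest library for 8 of the 9 genes. Cxcl13 was at 12.1, 8.33, 2.74 and 6.66 CPM with black rice, against 6.46, 3.68, 3.15 and 8.47 CPM in controls. Ccr7, the exception, was at 0.465, 0.315, 0.277 and 0.394 CPM with black rice, against 0.439, 0.564, 0.445 and 0.477 CPM in controls.

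The 9 genes varied together across libraries once group means were subtracted. Over the 18 Apc libraries the Pearson r of log2 CPM had a median of 0.96 over the 36 gene pairs, with a range of 0.73 to 0.99, and it exceeded 0.9 in 26 pairs. Without the 2 libraries farthest from the median the Apc range was 0.72 to 0.99. Over 11 AOM libraries the median was 0.95, with a range of 0.65 to 0.99, and 25 pairs exceeded 0.9. Over the 8 libraries of the third set the median was 0.90 with a range of 0.51 to 0.99, but without the 2 farthest libraries the range was -0.31 to 0.99, so the weaker pairs there rest on those libraries. The genes of a library share its tissue piece, depth and handling, and the values are a description with no test. The r of a gene with the mean of the 9 genes is a different measure from the r of a pair. It exceeded 0.9 for 0.327% of genes in the Apc table, 1.13% in the AOM table and 0.802% in the third set. Of the 9 genes themselves it did so for 8, 8 and 7 in the same order, raised by their own part in the mean.

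Ccr7 was the loosest of the 9, with an r to the member mean of 0.90 in the Apc table, 0.80 in the AOM table and 0.73 in the third set. All pairs under 0.8 in the Apc and AOM tables involved Ccr7, and in the third set every such pair involved Ccr7 or Cd79b. Ms4a1 was the tightest in the Apc and AOM tables, at 0.996 and 0.995. In the third set Fcer2a was highest, at 0.99, and Ms4a1 stood at 0.98. The mean includes each gene itself, which raises these values.

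The genes did not scale by the same factor. Within Apc groups, log2 Cxcl13 moved by 0.48 per log2 unit of Ms4a1, Ccr7 by 0.64, Cd79a by 0.79, and Cr2 and Fcer2a by 1.19 and 1.20. In the AOM table the slope of Cxcl13 was 0.67 and in the third set 0.84, while Cr2 stood at 1.10 and 1.26. The ratio of Cxcl13 to Ms4a1 reads accordingly ran from 1.27 to 16.0 across Apc libraries, with the highest values in the libraries poorest in Ms4a1, 12.5 and 16.0 in black rice F replicates 1 and 2. Across AOM libraries that ratio ran from 1.07 to 9.38, and in the third set from 2.82 to 6.45. The ratio of Cd79a to its partner Cd79b varied less in the Apc table, between 0.707 and 1.28, and in the AOM table, between 0.577 and 1.60. In the third set it lay between 0.353 and 0.887, in relative terms no narrower than the ratio of Cxcl13 to Ms4a1.

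**Figure D2:**
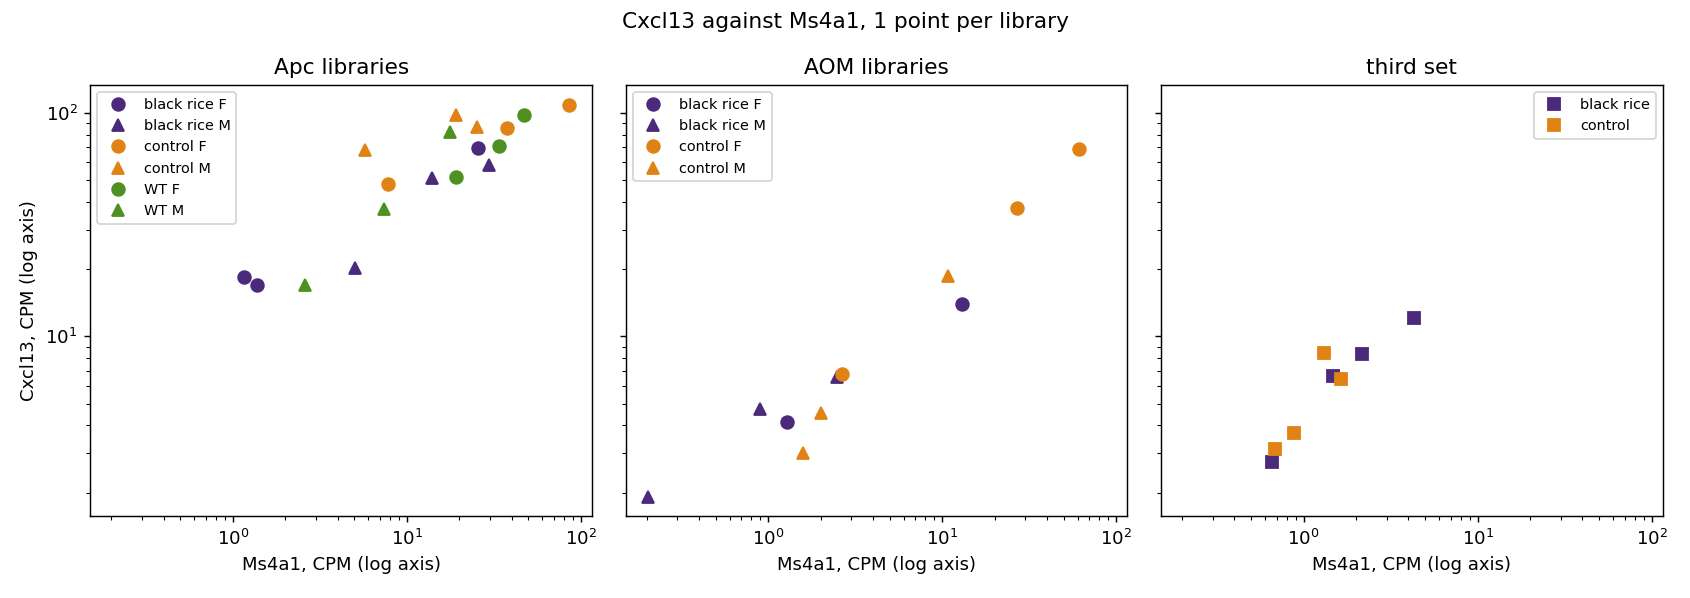
CPM of Cxcl13 against CPM of Ms4a1 on log axes, with 1 point per library and a panel for each table. Cxcl13 tended to be higher where Ms4a1 was higher in each table, and in the Apc table it stayed at or above 17.0 CPM where Ms4a1 was near 1 CPM.

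Genes outside the set were ranked by their r with the member mean. In the Apc table the nearest included, with r between 0.97 and 0.996 over 18 libraries, H2-Eb2, Fcmr, Tnfrsf13c, Blk, Cd22, H2-Ob, Fcrla, H2-DMb2 and Chst3. Among them Cd22 is an inhibitory coreceptor of the B cell receptor, Tnfrsf13c is the receptor for the survival factor BAFF, and H2-Ob is a chain of the class II modulator DO. In the AOM table the 10 nearest, with r between 0.98 and 0.99 over 11 libraries, were Tnfrsf13c, Zfp831, Traf3ip3, H2-DMb2, Btla, Ikzf3, Ifi209, H2-Eb2, H2-Ob and Cd22. In the third set they included Arhgap45, Ttyh1, Cd22, Sash3, Fermt3, Ncf4, Id3, Acap1 and Capn9, with r between 0.97 and 0.99 over 8 libraries. Cd22 was in all 3 lists, and Cd22, H2-Eb2, H2-Ob, H2-DMb2 and Tnfrsf13c were in the lists of both larger tables.

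Among lists of marker genes, 14 other B cell genes tracked the members most closely, with an r of their mean of 0.994 in the Apc table, 0.997 in the AOM table and 0.989 in the third set. Ighd, the heavy chain of IgD on naive B cells, was at 1.91, 1.39 and 49.4 CPM in Apc black rice F, against 7.96, 53.8 and 121 CPM in control F, which repeats the order of the libraries seen for Ms4a1. Ebf1, which stromal and fat cells also express, was the exception, with an r of 0.38, 0.11 and 0.04 in the 3 tables. The whole germinal centre list of 7 genes had an r of 0.63 in the Apc table, 0.87 in the AOM table and 0.54 in the third set, where 6 of its genes were tested and the value was -0.07 without the 2 farthest libraries.

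The 6 genes of the follicle-associated epithelium, the lining over follicles that holds antigen-sampling M cells, also varied with the B cell genes in the larger tables. The r of their mean was 0.94 in the Apc table and 0.95 in the AOM table, and 0.92 and 0.92 without Spib, which B cells express too. Gp2, an M cell receptor for bacteria, was at 0.00, 0.329 and 7.38 CPM in Apc black rice F, against 0.274, 9.13 and 8.42 CPM in control F. Its r with the member mean was 0.91 in the Apc table and 0.76 in the AOM table. Ccl20, a chemokine of that epithelium, had an r of 0.87 and 0.85 there and of -0.02 in the third set. The other genes of the list, Tnfaip2, Tnfrsf11a and Sox8, had an r of 0.12, 0.50 and 0.78 in the Apc table. In the AOM table they stood at 0.51, 0.72 and 0.28, and in the third set at 0.61, -0.65 and -0.13. In the third set the 5 genes of the list that were tested had an r of 0.22 for their mean, and Gp2 did not pass the low-count filter, at 0.0226 to 0.250 CPM.

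The 8 genes of lymphoid stroma and the lymphotoxin pathway had an r of 0.93 in the Apc table, 0.91 in the AOM table and 0.70 in the third set, the last falling to 0.26 without the 2 farthest libraries. Lta, the lymphotoxin chain needed to build lymphoid tissue, had an r of 0.93, 0.88 and 0.94, whereas the lymphotoxin receptor Ltbr had -0.19 in the Apc table and -0.65 in the AOM table, and the chemokine Ccl21a had 0.66, 0.24 and -0.23 in the 3 tables. T cell genes behaved differently between tables, with an r for 10 genes of -0.21 in the Apc table, 0.76 in the AOM table and 0.89 in the third set. Plasma cell genes, 9 in number, had an r of 0.26, 0.73 and 0.79 in the same order. Dendritic cell genes stood at 0.39, 0.82 and 0.64, and macrophage genes at -0.04, 0.60 and 0.78. In the Apc table, the list of other B cell genes thus stood at 0.994, the stroma and lymphotoxin list at 0.93 and the follicle-epithelium list at 0.94. The germinal centre list stood lower, at 0.63, and T cell and macrophage lists were near or below 0. Within the stroma and lymphotoxin list the highest values in that table were those of Lta and Ltb, at 0.93 and 0.92. In the AOM table and the third set the other immune lists also had positive values.

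Markers of the main tissue layers had mostly negative values. Epithelial genes, 6 in number, had an r of -0.55 in the Apc table, -0.37 in the AOM table and 0.35 in the third set. Adipocyte genes, 5 in number, had an r of -0.59, -0.33 and -0.12, and smooth muscle genes, 6 in number, of -0.12, -0.16 and -0.31. The hepatocyte list had an r of 0.40, 0.22 and 0.30, with 5 genes tested in the Apc table and 3 in each of the others. Its genes did not move alike. In the Apc table Ttr had an r of 0.71 and the others lay between -0.25 and 0.14. In the third set Alb and Ttr had -0.62 and -0.85 and Apoa1 had 0.73. The part of tissue composition in the levels of the B cell genes was not tested.

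**Figure D3:**
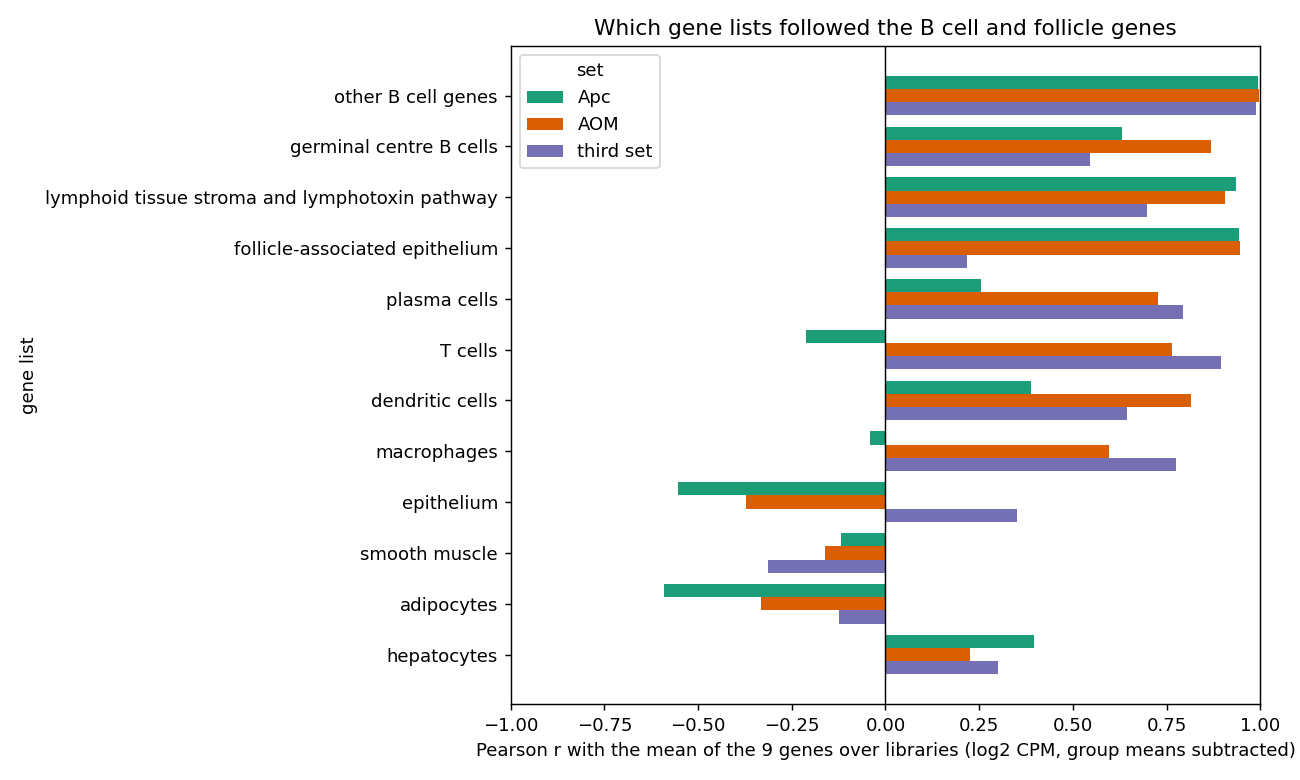
Pearson r of each marker list's mean log2 CPM with the mean of the 9 genes, after subtracting group means, for the Apc table, the AOM table and the third set. Other B cell genes lie at 0.994, 0.997 and 0.989 in the 3 tables, and T cell genes lie at -0.21, 0.76 and 0.89.

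The first comparison was black rice against the control diet in the Apc table, averaged over the letters F and M. Cxcl13 averaged 39.2 ± 23.4 CPM with black rice and 82.6 ± 21.7 CPM with the control diet (SD, n = 6 each), and its log2 difference was -1.08 with a 95% interval of -1.95 to -0.22. The unadjusted p was 0.018 and the adjusted p was 0.40 by edgeR's quasi-likelihood test. Ms4a1 averaged 12.8 ± 12.5 CPM with black rice and 30.2 ± 29.6 CPM with the control diet, with a log2 difference of -1.14 and an interval of -2.76 to 0.47. Cd79a averaged 10.6 ± 8.67 CPM with black rice and 23.8 ± 17.7 CPM with the control diet, with a log2 difference of -1.20 and an interval of -2.52 to 0.11. All 9 log2 differences were below 0, from -1.20 to -0.34 with a median of -1.08, against a median of -0.01 over all genes tested, of which 50.9% were below 0. Since the 9 genes move together from library to library, their common sign is not 9 separate results. No gene of the 9 passed an adjusted p of 0.05, where 0.0139% of 21624 genes did, and 1 passed an unadjusted p of 0.05, as did 10.3% of genes.

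The size of the Apc difference rested on single libraries. Without black rice F replicate 3 the median log2 difference of the 9 genes was -2.15, and without control F replicate 3 it was -0.66. Fcer2a changed sign, at 0.17 without control F replicate 3 and 0.05 without control M replicate 2, against -0.34 with all libraries.

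By letter, the median log2 difference between black rice and the control diet in the Apc table was -1.95 in F libraries and -0.09 in M libraries. In F libraries Cd79a and Cd79b had unadjusted p-values of 0.043 and 0.039 and adjusted p-values of 0.47 and 0.46 by edgeR, and their log2 differences were -1.98 and -2.0. No gene passed the adjusted threshold in F libraries, among the 9 or among all genes, while 10.2% of all genes passed an unadjusted p of 0.05. In M libraries 0.0324% of all genes and none of the 9 passed, and 6 of the 9 differences were below 0, as were 51.7% of all genes. None of the 9 and 8.54% of all genes had an unadjusted p under 0.05 in M libraries, with Fcer2a at 9.19 ± 7.23 CPM with black rice and 4.46 ± 3.23 CPM with the control diet (SD, n = 3 each). The difference between the letters was tested itself, with a median of -1.81 for the 9 genes and a lowest adjusted p of 0.67 by edgeR. No gene of the 9, and no gene of the table, passed that test, and 8.89% of all genes had an unadjusted p under 0.05. Without black rice F replicate 3 the F median was -4.04 and the median of the difference between letters was -3.86, and without control F replicate 3 they were -1.04 and -1.0.

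In the AOM table, again averaged over the letters, all 9 log2 differences between black rice and the control diet were below 0, from -1.98 to -1.45 with a median of -1.74, against -0.02 over all genes, 53.5% of which were below 0. Cd79b averaged 5.72 ± 3.84 CPM with black rice (SD, n = 5) and 28.1 ± 36.0 CPM with the control diet (SD, n = 6), and its log2 difference was -1.58 with an interval of -2.82 to -0.34. Its unadjusted p was 0.017 and its adjusted p 1 by edgeR. Cxcl13 averaged 6.26 ± 4.58 CPM with black rice and 23.3 ± 25.9 CPM with the control diet, with a log2 difference of -1.45, an unadjusted p of 0.046 and an adjusted p of 1. Both arms overlapped for every gene, and between 4 and 5 of the 5 black rice libraries lay below the control median for each gene. No gene of the 9 and no gene of the table passed the adjusted threshold, while 3 of the 9 (Cd79a, Cd79b and Cxcl13) and 3.06% of all genes had an unadjusted p under 0.05. With all 12 libraries the median was -1.69 and the value of Cxcl13 was -1.07. The difference between the letters had a median of -0.69 over the 9 genes, and none of the 9 and none of the table passed its test, where 14% of all genes had an unadjusted p under 0.05. That median was -2.68 without black rice F replicate 2 and 0.57 without black rice M replicate 3, and 0.75 with the replicate number as a block.

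In the third set 7 of the 9 log2 differences were above 0, with a median of 0.69 against 0.01 over all genes, 48.7% of which were below 0. Ms4a1 averaged 2.15 ± 1.56 CPM with black rice and 1.13 ± 0.429 CPM in controls (SD, n = 4 each), with a log2 difference of 0.89 and an interval of -0.30 to 2.07. Cr2 averaged 1.18 ± 0.907 CPM with black rice and 0.480 ± 0.147 CPM in controls, with a log2 difference of 1.25 and an interval of -0.21 to 2.71. Ccr7 averaged 0.363 ± 0.0836 CPM with black rice and 0.482 ± 0.0576 CPM in controls, with a log2 difference of -0.46. No gene of the 9 and no gene of the table passed the adjusted threshold, the lowest adjusted p of the 9 being 0.66 by edgeR. None of the 9 and 7.94% of all genes had an unadjusted p under 0.05. Without black rice replicate 1 the median was 0.13 and Cd79b stood at -0.02, and Cxcr5, at -0.04 with all libraries, changed sign in 5 of the 8 fits that left out a library.

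**Figure D4:**
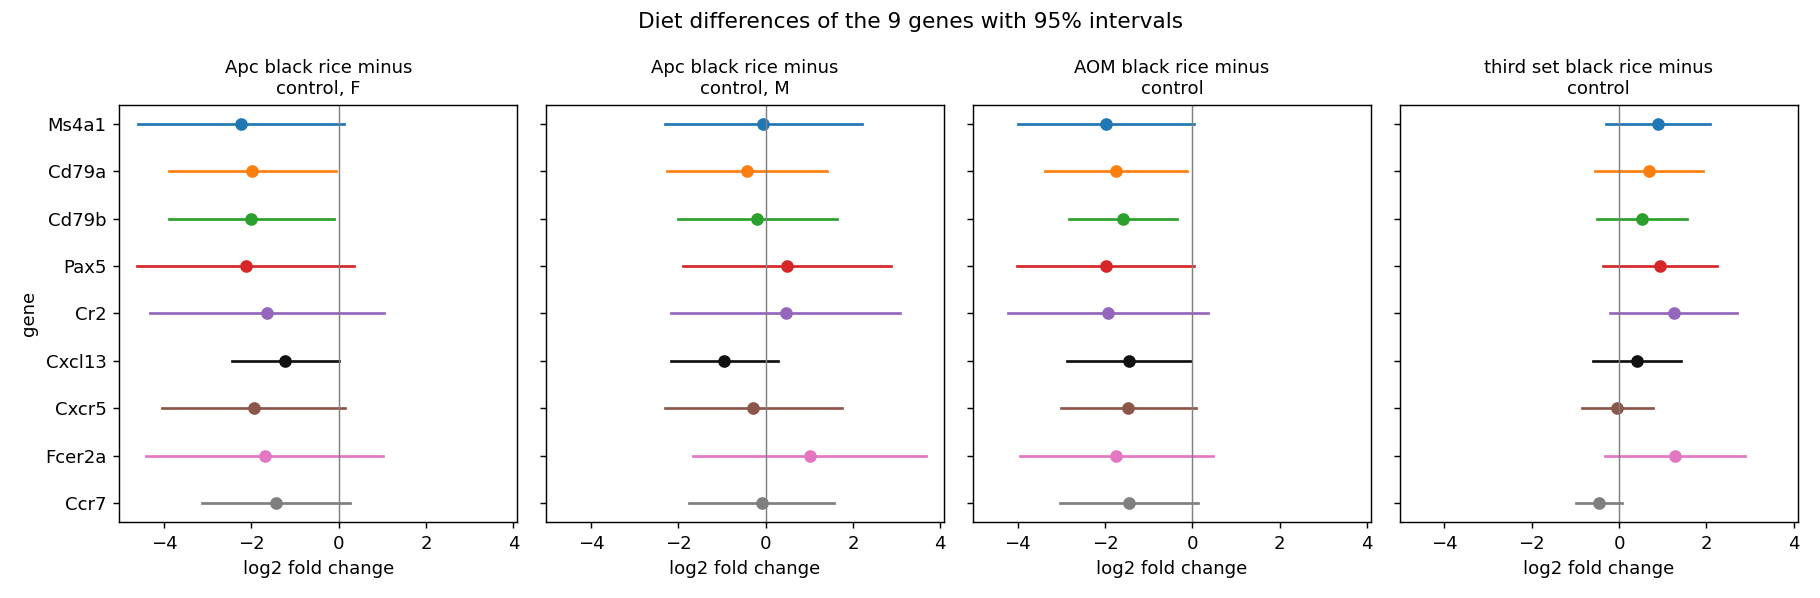
Log2 difference, black rice minus control, of each of the 9 genes in Apc F libraries, Apc M libraries, the AOM table and the third set, with 95% intervals from edgeR. All 9 values are below 0 in Apc F libraries and in the AOM table, and 6 of 9 are below 0 in Apc M libraries. In the third set 7 of 9 are above 0. The intervals that exclude 0 are those of Cd79a and Cd79b in Apc F libraries and of Cd79a, Cd79b and Cxcl13 in the AOM table.

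Markers of other cell types also differed between arms in the diet comparisons, without passing the adjusted threshold. In the Apc table the log2 differences of all 10 T cell genes were below 0, with a median of -0.89, and 8 had an unadjusted p under 0.05. Of all genes tested in that comparison, 50.9% were below 0 and 10.3% had such a p. Genes of a list may move together, so these counts are not separate results. All 9 plasma cell genes were also below 0, with a median of -1.44 and 6 at an unadjusted p under 0.05, while the median of the 14 other B cell genes was -0.79 and 3 had such a p. The summed T cell list ran from 21.0 to 62.7 CPM with black rice and from 41.1 to 130 CPM with the control diet in that table. All 6 smooth muscle genes had differences above 0 there, with a median of 0.49, and their sum ran from 2865 to 5409 CPM with black rice and from 2152 to 3388 CPM with the control diet. In the AOM table the 14 other B cell genes had a median of -1.66 and the 10 T cell genes a median of -0.53, with 1 of 10 at an unadjusted p under 0.05. All 6 macrophage genes were below 0 there, with a median of -0.67, and all 6 had an unadjusted p under 0.05. Of all genes tested in the AOM table, 53.5% were below 0 and 3.06% had such a p. No gene of any list passed an adjusted p of 0.05 in any comparison by edgeR, and the part these lists had in the values of the 9 genes was not tested.

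Control diet libraries and WT libraries of the Apc table were also set side by side. The labels give no diet for the WT libraries, so genotype and diet cannot be told apart in comparisons with WT. Cxcl13 averaged 82.6 ± 21.7 CPM in control libraries and 59.6 ± 30.0 CPM in WT libraries (SD, n = 6 each). Ms4a1 averaged 30.2 ± 29.6 CPM in control and 21.4 ± 16.7 CPM in WT. The log2 differences of the 9 genes ran from 0.14 to 0.55 with a median of 0.39, and the lowest adjusted p was 0.999 by edgeR. No gene of the 9 and no gene of the table passed, and none of the 9 had an unadjusted p under 0.05, where 4.25% of all genes did. Without control F replicate 3 the median was -0.10. Black rice libraries against WT gave a median of -0.61, a lowest adjusted p of 0.66, and 0 of 9 genes called, where 0.0139% of all genes were, and none of the 9 had an unadjusted p under 0.05, where 8.17% of all genes did. Without black rice F replicate 3 that median was -1.88. These comparisons share their libraries with each other and with the diet comparison.

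The libraries with the letter F were also set against those with the letter M. In the AOM table Ms4a1 averaged 20.9 ± 24.5 CPM in F libraries (SD, n = 5) and 2.99 ± 3.89 CPM in M libraries (SD, n = 6), with a log2 difference of 2.60 and an interval of 0.65 to 4.55. Cd79b averaged 32.9 ± 38 CPM in F libraries and 5.45 ± 3.37 CPM in M libraries, with a log2 difference of 1.84 and an adjusted p of 0.57 by edgeR. Among F libraries, black rice replicate 1 held 3.95 CPM of Cd79b, while control replicates 1 and 3 held 96.1 and 40.9 CPM. All 9 differences were above 0, from 1.53 to 2.71, and all 9 had an unadjusted p under 0.05, as did 8.44% of all genes, 50.8% of which had a difference below 0. None of the 9 passed the adjusted threshold, where 0.0365% of 21895 genes did, and in the other fits tried the lowest adjusted p of any of them was 0.079, by DESeq2. Some other lists had differences of the same sign, while all 6 epithelial genes, with a median of -0.44, and 4 of 6 smooth muscle genes were below 0. All 6 macrophage genes were above 0 and at an unadjusted p under 0.05, as were 4 of 5 adipocyte genes, whose median was 3.42, and 3 of 10 T cell genes passed that p. The part of these lists in the difference was not tested. DESeq2 called none of the 9 genes in any comparison. In the Apc table the difference between F and M libraries had a median of 0.50 over the 9 genes, with 2 of 9 below 0, as were 48.7% of all genes. None passed the adjusted threshold, where 0.074% of genes did, or an unadjusted p of 0.05, where 15.1% did. It was -0.31 without black rice F replicate 3.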

How the data were processed

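The authors deposited read counts per gene, which are whole numbers, as 3 tables. The AOM table and the third set were, per the file headers, counted with featureCounts 2.0.1 against Ensembl release 104 of GRCm39, over exons and with no strand option, so reads of a gene and of an overlapping antisense gene cannot be told apart. Per the submitters' processing notes, fastp, HISAT2 and SAMtools were also used, and GRCm39 was the build. Per the labels' protocols, messenger RNA was captured with oligo(dT) and sequenced on a DNBSEQ platform.

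From the deposited counts, CPM were computed on total counted reads, and RPKM with exon lengths of GENCODE vM21. Genes passing filterByExpr were tested with edgeR 4.0.16 in R 4.3.3 (TMM, quasi-likelihood, two-sided, Benjamini-Hochberg over all genes of a table). A gene was called at an adjusted p under 0.05. All groups of a table shared a fit, and 11 AOM libraries were used. DESeq2 1.42.0 was an alternative. The scripts were tested on simulated data. None of the 42 library pairs within groups was identical.

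Likeness is the Pearson r of log2 CPM (prior count 2), group means subtracted, with the mean of the 9 genes, over genes whose mean log2 CPM reached 0 and for list genes past the filter. From each table the 10 nearest genes with a symbol were named, leaving out predicted genes and receptor segments, and some of the genes so ranked are not reported here. The 9 genes and the marker lists were chosen with earlier results of these data known, and Ighd, Ebf1, Gp2, Ccl20 and Lta were picked from the lists after their values were seen. The number of unmapped value columns was 0. Coordinates come from GRCm38.p6, which is not the build of the counts, and are used for the printed windows alone.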

Additional observations from a re-analysis of the deposited data

How the results depend on the processing

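None of the 9 genes was called in 1980 member tests over the alternatives, where the lowest adjusted p was 0.079 (AOM F minus M, DESeq2), against 0.40 as the lowest in the reported fits. Of 1476 alternative values, 77 moved beyond the spread or factor allowed, and 8 values of single genes changed sign. Medians of the 9 genes that changed sign are given as ranges or under the block. What moved was mostly the count of genes called over a whole table, and the cause was not tested. With DESeq2 the counts were 202 for the Apc diet comparison, 201 in F, 151 in M, 132 for the difference between letters, 24 for control minus WT, 72 for black rice minus WT and 528 for Apc F minus M. For AOM they were 13 for diet, 175 for the difference between letters and 74 for F minus M, and for the third set 136. With edgeR they were 3, 0, 7, 0, 0, 3 and 16 in the Apc table, 0, 0 and 8 in the AOM table and 0 in the third set. Without the low-count filter they were 23 for Apc diet, 15 in F, 16 in M, 6 for the difference between letters and 6 for black rice minus WT. RLE size factors gave 0 for black rice minus WT. Fitting the compared groups alone gave 1 for Apc diet, 0 in M and 0 for black rice minus WT. Same-numbered libraries of different groups had a median r of -0.06 in the Apc table, 0.10 in the AOM table and -0.35 in the third set. For differently numbered libraries it was 0.02, -0.04 and 0.07. With so few libraries in a group, these values cannot settle whether the numbers pair libraries. A replicate block gave 0 genes for Apc diet in M, 0 for black rice minus WT, 10 for Apc F minus M and 203 for the AOM difference between letters. Under that block the median of the 9 genes was -1.26 for Apc diet, -1.21 for AOM diet and 0.48 in the third set, and for the AOM difference between letters it was 0.75, against -0.69 without the block.

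Leaving out 1 library at a time, the genes called ran from 1 to 6 for Apc diet, 0 to 4 in F, 0 to 11 in M, 0 to 7 for the difference between letters, 0 to 2 for black rice minus WT, 10 to 67 for Apc F minus M, 6 to 9 for AOM F minus M and 0 to 1 in the third set, and stayed at 0 for control minus WT, AOM diet and the AOM difference between letters. The median log2 difference of the 9 genes ran from -2.15 to -0.66 for Apc diet, -4.04 to -1.04 in F, -0.73 to 0.45 in M, -3.86 to -1.0 for the difference between letters, -0.10 to 0.77 for control minus WT, -1.88 to -0.28 for black rice minus WT, -0.31 to 0.73 for Apc F minus M, -2.43 to -1.17 for AOM diet, -2.68 to 0.57 for the AOM difference between letters, 1.34 to 2.50 for AOM F minus M and 0.13 to 1.01 in the third set. Single genes that changed sign were Fcer2a for Apc diet (-2.06 to 0.17), and Cd79b (-0.025 to 0.83) and Cxcr5 (-0.51 to 0.16) in the third set. With 3 libraries in most groups, an interval on a log2 difference of these variable genes spanned several units, so a p above the threshold does not show that arms were alike. Depth limits the lowest values, such as the 0.0256 CPM of Ccr7 in AOM black rice M replicate 2, and Pax5, Cr2, Cxcr5, Fcer2a and Ccr7 were under 1 CPM in most libraries of the third set.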
